A study of Mus musculus with 6 samples.

Results

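The 37 genes described here encode the NF-kappaB transcription factors, their inhibitors and kinases, and the receptors, adaptors and feedback enzymes of tumour necrosis factor (TNF) signalling. They were taken by symbol, and all 37 were found among the 47480 rows of a deposited expression table. The libraries were made from primary chondrocytes of neonatal mice, the matrix-producing cells of cartilage. The WT group is C57BL/6 mice, and the A2ARKO group is mice with a global knockout of the adenosine receptor gene Adora2a, on the same background. Each library is 1 pool of cells from a whole litter, with 3 litters for each genotype, so a replicate is a litter pool and no treatment is named in the labels. The study set out to characterize drivers of osteoarthritis. The deletion is in all cells of the animal, and the labels name no sex, culture time or batch. Where values are listed by library, the order is replicate 1, 2 and 3.

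NF-kappaB is a family of dimeric transcription factors that rest in the cytoplasm bound to inhibitor proteins called IkappaB. Signals from TNF, interleukin or Toll-like receptors pass through adaptor and ubiquitin ligase complexes to the IkappaB kinase complex, which marks IkappaB for destruction and frees the factors to enter the nucleus. Several of the genes they switch on encode their own inhibitors. The messenger levels of Nfkbia, Bcl3, Tnfaip3 and Icam1 are widely read as outputs of the pathway. Most kinases and adaptors are regulated at the protein level. In cartilage the pathway is known for its role in the response to inflammatory cytokines.

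Adora2a itself was read at 9.36, 7.31 and 3.46 FPKM for the WT pools against 0.41, 0.54 and 0.66 FPKM for the A2ARKO pools, with no overlap between the groups (limma log2 fold change -2.25, standard error 0.309, adjusted p = 0.0203; two-sided exact permutation p = 0.1, the smallest that 3 against 3 libraries allow). Leaving out WT replicate 2 ended this call (adjusted p = 0.0582), as did leaving out A2ARKO replicate 1, 2 or 3 (0.0824, 0.0955 and 0.0864). Values are FPKM, fragments per kilobase of gene per mega (M) fragments. Steps between low values correspond to totals of 41.6 to 58.1 M reads per library. The WT pools were not alike, and Col2a1, the gene of the main cartilage collagen, ran from 185 FPKM in WT replicate 3 to 18662 FPKM in WT replicate 1. Summed over 10 cartilage markers, the WT pools held 24600, 1320 and 484 FPKM against 2192, 4400.1 and 6129 FPKM for the A2ARKO pools. Summed over 12 markers of macrophages and other leukocytes, the order was 182, 1939 and 131 FPKM for WT against 45.8, 22.4 and 17.1 FPKM for A2ARKO. Fibroblast markers summed to 9337, 7465 and 6415 FPKM against 4780.3, 3398 and 3767 FPKM, a sum led by the collagen gene Col1a1. Of these 8 markers 4 had a log2 fold change below 0 and 4 above, among the latter Dcn, with means of 302 FPKM in WT and 696 FPKM in A2ARKO. Skeletal muscle markers summed to 953 FPKM in WT replicate 2 and to at most 30.02 FPKM in any other library.

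Of the 37 genes, 35 reached 1 FPKM in at least 3 of the 6 libraries and were tested with limma on log2(FPKM + 1), with p-values adjusted over all 11595 genes tested. In A2ARKO chondrocytes 4 of the 35 rose, Ripk2, Map3k8, Nfkb1 and Traf3, where 5.08% of all tested genes were called, 3.31% as higher. By limma 0 of 35 fell, where 1.77% of all tested genes did, and Tab2 alone lay lower at an unadjusted p below 0.05. The other 31 did not pass. The median log2 fold change of the 35 was 0.40, beside 0.00201 over all tested genes, and 30 of the 35 lay above 0, beside 50.4% of all tested genes. After the libraries were rescaled to the same sum, 26 lay above 0 with a median of 0.28, beside -0.098 over all tested genes. Only Ripk2 passed there, as was also so with no filter on low values. Quantile normalization left 28 above 0, with a median of -0.037 over all tested genes. Above the median of all tested genes lay 29 of the 35 after rescaling and 30 after quantile normalization, beside 30 in the main fit. Of all 589 genes called, 384 were higher (65.2%), against 51.1% after rescaling and 53.8% after quantile normalization. Every A2ARKO library lay above every WT library for 17 of the 35 genes (18% of all tested genes) and below for 1 (14.9%). Apart from Tnfaip3, which was above 1 FPKM in the A2ARKO libraries and in WT replicate 2 but not in the other WT pools, 34 genes reached 1 FPKM in every library.

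**Figure D1:**
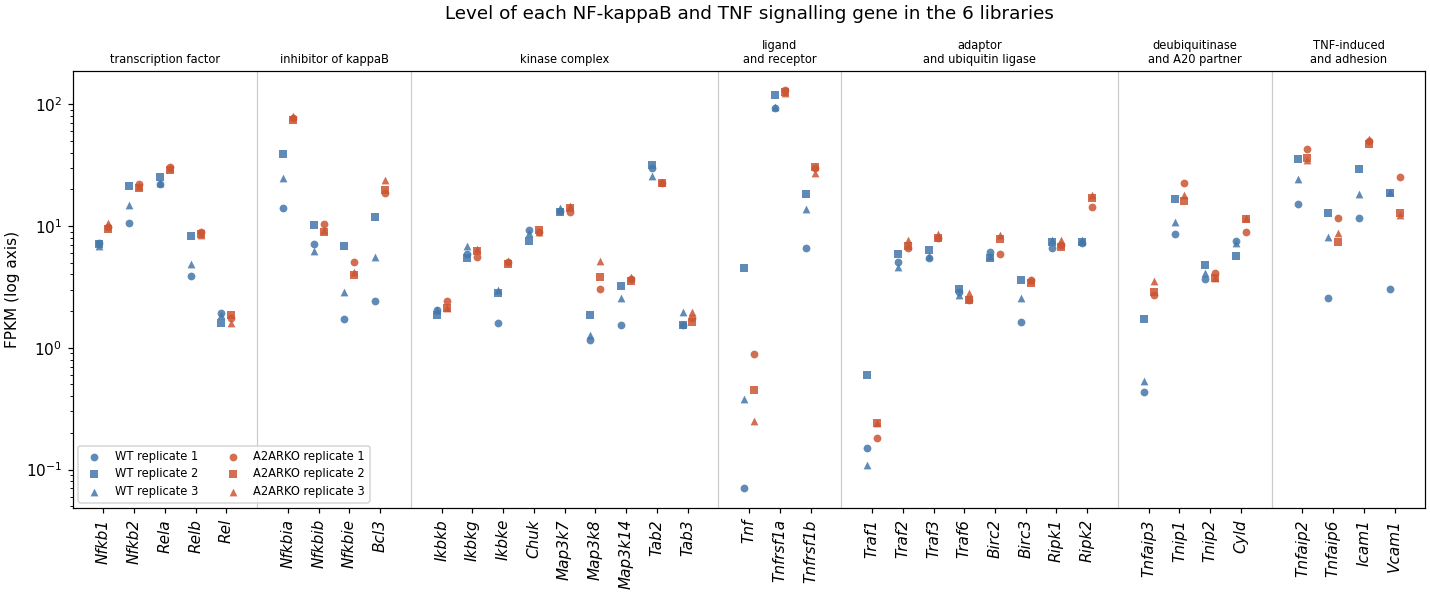
FPKM of each of the 37 genes in each of the 6 libraries, on a log axis, grouped by role; blue symbols are WT and orange symbols A2ARKO litter pools, with 1 shape for each replicate number. The A2ARKO libraries lie close together for most genes, while the WT libraries of Nfkbia, Bcl3, Tnfaip3 and Icam1 spread over a range of 2.49-fold or more.

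Which of these genes carry a strict form of the letters that NF-kappaB binds was read from the 250 bases before the RefSeq start sites (GRCm38.p6, the assembly named mm10). The kappaB consensus, 10 bases long, was searched on both strands as GGGRNWYYCC (R is A or G, N any base, W A or T, Y C or T). Letters that differ from it were not counted, such as ggaaattcct before Icam1, so a gene with no match can hold related letters. It was found before 9 of the 31 genes with a window in the table, 29.03%, beside 4.46% of all 27025 genes and 5.58% of the tested ones. Counted by window, since some genes have several starts, it was in 27.5% of 40 windows, beside 3.9% of all windows. The 9 were Nfkbia, Traf3, Cyld, Tnip1, Rel, Map3k7, Nfkbie, Nfkb2 and Tnfaip3. Nfkb1, Relb, Ikbkb, Map3k8, Ripk2 and Vcam1 had no window. Of the 9, 4 had every A2ARKO library above every WT library and 5 overlapped, and of the 20 tested genes with a window and no match, 8 lay above, 1 lay below and 11 overlapped, where 18% of all tested genes lay above and 14.9% below. A match is a description of the letters and not of binding. The windows printed here are RefSeq's and belong to genes that span the results, with Nfkbia, Traf3 and Cyld above WT in every A2ARKO library and Tnip1, Rel and Map3k7 overlapping. They are written 5′ to 3′ on the strand of the gene and end before its first annotated exon, and capitals mark the match, with overlapping matches run together. Their positions, in the order of the sequences, are chr12:55492648-55492897 (minus strand), chr12:111166120-111166369 (plus), chr8:88696778-88697027 (plus), chr11:54962941-54963190 (minus), chr11:23770971-23771219 (minus) and chr4:31963857-31964096 (plus).
Nfkbia: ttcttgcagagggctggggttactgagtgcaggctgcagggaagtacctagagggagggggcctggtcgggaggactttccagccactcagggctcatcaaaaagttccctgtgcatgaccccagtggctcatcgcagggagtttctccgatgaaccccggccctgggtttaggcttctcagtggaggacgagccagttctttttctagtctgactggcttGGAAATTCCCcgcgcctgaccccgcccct
Traf3: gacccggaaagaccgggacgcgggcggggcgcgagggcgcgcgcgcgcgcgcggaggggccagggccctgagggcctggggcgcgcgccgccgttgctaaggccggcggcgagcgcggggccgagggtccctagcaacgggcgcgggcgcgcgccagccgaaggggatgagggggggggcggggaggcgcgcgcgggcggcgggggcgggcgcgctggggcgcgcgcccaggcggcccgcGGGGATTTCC
Cyld: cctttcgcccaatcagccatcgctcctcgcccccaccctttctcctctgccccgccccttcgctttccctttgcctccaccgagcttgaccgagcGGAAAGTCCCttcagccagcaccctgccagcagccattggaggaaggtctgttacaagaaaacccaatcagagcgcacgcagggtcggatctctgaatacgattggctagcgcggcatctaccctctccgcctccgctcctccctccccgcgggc
Tnip1: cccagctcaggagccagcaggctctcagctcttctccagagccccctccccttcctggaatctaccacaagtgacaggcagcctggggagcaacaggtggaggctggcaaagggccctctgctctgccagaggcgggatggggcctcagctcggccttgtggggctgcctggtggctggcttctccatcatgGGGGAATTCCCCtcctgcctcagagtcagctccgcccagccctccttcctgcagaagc
Rel: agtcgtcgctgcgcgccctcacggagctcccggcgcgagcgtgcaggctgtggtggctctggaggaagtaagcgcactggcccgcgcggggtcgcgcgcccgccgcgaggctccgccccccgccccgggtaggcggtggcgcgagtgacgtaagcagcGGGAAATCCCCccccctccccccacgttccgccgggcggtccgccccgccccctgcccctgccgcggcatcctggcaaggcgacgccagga
Map3k7: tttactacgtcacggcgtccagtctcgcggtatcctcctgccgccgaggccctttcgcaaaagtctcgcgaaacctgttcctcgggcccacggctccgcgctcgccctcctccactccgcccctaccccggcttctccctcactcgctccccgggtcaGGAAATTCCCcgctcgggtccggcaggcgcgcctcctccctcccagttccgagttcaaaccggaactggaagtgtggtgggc
The match lies 29 to 20 bases before the start of Nfkbia and 10 to 1 bases before that of Traf3. In Tnip1 the capitals join 3 overlapping matches and in Rel 2. Nfkb2 holds GGGAATTCCC, the overlapping GGAATTCCCC and GGGGCTTTCC before its first start, and Tnfaip3 holds GGGACACCCC and GGAAATCCCC.

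The receptors were well expressed and the ligand was scarce. Tnfrsf1a, the death-domain receptor for TNF found on most cells, had the highest FPKM of the 37 genes in every library, at 92.9, 118 and 94.8 FPKM for the WT pools against 129.5, 125 and 123 FPKM for the A2ARKO pools. The A2ARKO libraries lay above WT, but by a log2 fold change of 0.31 that did not pass (95% interval -0.01 to 0.63, limma adjusted p = 0.208). Tnfrsf1b, the second TNF receptor, which has no death domain and recruits Traf2 (mm10 chromosome 4, 145213463 to 145246870, minus strand), held 6.6, 18.4 and 13.8 FPKM for the WT pools against 30.05, 30.6 and 27.15 FPKM for the A2ARKO pools. WT replicate 1 was lowest and the groups did not overlap, yet with a log2 fold change of 1.22 (95% interval 0.41 to 2.03) it did not pass (limma adjusted p = 0.0933), though it did without WT replicate 1 (0.0349). The ratio of Tnfrsf1b to Tnfrsf1a was 0.071, 0.156 and 0.146 for the WT pools against 0.232, 0.244 and 0.22 for the A2ARKO pools, with no overlap.

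Tnf, the cytokine gene that names the pathway, was below the filter, at 0.07, 4.49 and 0.38 FPKM for the WT pools against 0.89, 0.45 and 0.25 FPKM for the A2ARKO pools. WT replicate 2 stood far above all other libraries, and the A2ARKO values lay between WT replicates 1 and 2. With the annotated exon length, these values correspond to about 5, 367 and 33 reads in WT and 75, 43 and 22 reads in A2ARKO. WT replicate 2 also held the most leukocyte marker FPKM: all 12 of those markers were highest there among the WT pools, and 11 of the 12 were lower in every A2ARKO library than in any WT library, with Cd68 the exception. Ptprc, the pan-leukocyte gene for CD45, was read at 0.17, 1.4 and 0.17 FPKM for the WT pools against 0.04, 0.01 and 0.01 FPKM for the A2ARKO pools, and the complement gene C1qa at 6.58, 63.9 and 1.06 FPKM for the WT pools against 0.24, 0.02 and 0 FPKM for the A2ARKO pools. In RNA from bulk cells, fewer cells of a type and less RNA per cell cannot be told apart. The part of leukocytes in the Tnf value of WT replicate 2 was not tested. Of 8 endothelial markers, of interest because Icam1 and Vcam1 are also endothelial genes, Tek reached the highest value, 3.42 FPKM in WT replicate 3, and Pecam1 was read at 0.11, 0.18 and 0.08 FPKM for the WT pools against 0.08, 0.01 and 0.03 FPKM for the A2ARKO pools.

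Of 8 adaptor and ubiquitin ligase genes, Ripk2 and Traf3 rose, 5 did not pass and Traf1 was below the filter. Ripk2 had the strongest call of the 37 genes. It encodes the kinase that carries signals from the NOD receptors of bacterial peptidoglycan to the IkappaB kinases (mm10 chromosome 4, 16122733 to 16163647, minus strand). It was read at 7.19, 7.45 and 7.73 FPKM for the WT pools against 14.3, 17.1 and 18.03 FPKM for the A2ARKO pools. The WT pools agreed within 1.08-fold, and every A2ARKO pool held more than all of them. Its means were 7.46 ± 0.27 and 16.5 ± 1.95 FPKM (SD, n = 3), a rise of 1.04 log2 units (SE 0.104, limma adjusted p = 0.0097). It passed without any 1 of the WT libraries and without A2ARKO replicate 1, and did not without A2ARKO replicate 2 or 3 (adjusted p = 0.064 and 0.0525). Its A2ARKO mean was 2.29, 2.21 and 2.13 times the 3 WT pools. Ripk1, the related kinase of the TNF receptor complex, was level at 6.65, 7.32 and 7.6 FPKM for the WT pools against 7.01, 6.71 and 7.7 FPKM for the A2ARKO pools, with a 95% interval of -0.22 to 0.21. The ratio of Ripk2 to Ripk1 was 1.08, 1.02 and 1.02 for the WT pools against 2.04, 2.55 and 2.34 for the A2ARKO pools. Of the exonic bases of Ripk1 9.0% are shared with other genes.

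Traf3, an adaptor that keeps the NIK kinase in check (mm10 chromosome 12, 111166370 to 111267153, plus strand), was read at 5.48, 6.3 and 5.71 FPKM for the WT pools against 7.95, 7.97 and 8.66 FPKM for the A2ARKO pools, with the A2ARKO libraries all above WT. Its means were 5.83 ± 0.423 and 8.19 ± 0.404 FPKM (SD, n = 3), a rise of 0.43 log2 units (SE 0.0839, limma adjusted p = 0.0457). The call was lost in each fit without 1 library (adjusted p from 0.059 to 0.191), after rescaling to the same sum (0.239) and after quantile normalization (0.0502). Traf2, whose protein is recruited by the receptor that Tnfrsf1b encodes, held 5.01, 5.86 and 4.6 FPKM for the WT pools against 6.55, 6.86 and 7.66 FPKM for the A2ARKO pools. Its groups did not overlap, and its limma adjusted p was 0.0965. Traf6, the ubiquitin ligase of the interleukin and Toll arm, had a log2 fold change of -0.12 (95% interval -0.33 to 0.10). Birc2 and Birc3, neighbouring genes that encode the cellular inhibitors of apoptosis, had log2 fold changes of 0.30 and 0.37 with overlapping groups. Birc3 was read at 1.64, 3.59 and 2.57 FPKM for the WT pools against 3.59, 3.42 and 3.58 FPKM for the A2ARKO pools, so that WT replicate 2 equalled the highest A2ARKO library. Traf1 was scarce, at 0.15, 0.6 and 0.11 FPKM for the WT pools against 0.18, 0.24 and 0.24 FPKM for the A2ARKO pools, highest in WT replicate 2.

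Of the 9 kinase genes and their partners, Map3k8 rose and 8 did not pass. Map3k8, encoding the kinase Tpl2 that is bound to the Nfkb1 precursor and relays signals to ERK (mm10 chromosome 18, 4331327 to 4353015, minus strand), was read at 1.16, 1.87 and 1.28 FPKM for the WT pools against 3.04, 3.78 and 5.13 FPKM for the A2ARKO pools. The lowest A2ARKO library lay above the highest WT library, and the A2ARKO values spread over 1.69-fold. Group means were 1.44 ± 0.38 and 3.98 ± 1.06 FPKM (SD, n = 3), and the rise was 1.02 log2 units (SE 0.19, limma adjusted p = 0.0424). No fit that left out 1 library kept the call (adjusted p from 0.0576 to 0.162). Ikbke, an inducible relative of the IkappaB kinases, held 1.61, 2.83 and 2.99 FPKM for the WT pools against 5.05, 4.85 and 5.17 FPKM for the A2ARKO pools. Its groups did not overlap, and the difference was 0.82 log2 units (limma adjusted p = 0.0551; 0.0212 without WT replicate 1 and 0.0486 without WT replicate 3). Map3k14, the kinase NIK of the alternative pathway, held 1.55, 3.23 and 2.56 FPKM for the WT pools against 3.69, 3.5 and 3.78 FPKM for the A2ARKO pools, just above WT in every A2ARKO library (adjusted p = 0.2004).

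The genes of the core kinase complex lay close to WT, although Ikbkb was above it without overlap. Chuk and Ikbkb encode its catalytic subunits and Ikbkg its scaffold NEMO, and their log2 fold changes were 0.08 (95% interval -0.14 to 0.31), 0.11 (-0.11 to 0.33) and 0.01 (-0.25 to 0.26). The upstream kinase gene Map3k7, encoding TAK1, was read at 13.25, 12.9 and 14.1 FPKM for the WT pools against 13.1, 14.01 and 14.4 FPKM for the A2ARKO pools, with a 95% interval of -0.15 to 0.23, and a kappaB match stands before its start. These intervals exclude a change of the size fitted for Map3k8. The ratio of Ikbke to Ikbkb within a library was 0.793, 1.51 and 1.47 for the WT pools against 2.09, 2.31 and 2.45 for the A2ARKO pools. Of the genes for the ubiquitin-binding partners of TAK1, Tab3 overlapped between the groups (log2 fold change 0.06) and Tab2 was the only gene of the 37 below WT in every A2ARKO library. Tab2 held 29.8, 31.4 and 25.6 FPKM for the WT pools against 22.4, 22.6 and 23.01 FPKM for the A2ARKO pools, and ranked 2, 4 and 2 among the 37 genes in WT and 9, 7 and 8 in A2ARKO. At a log2 fold change of -0.33 (95% interval -0.57 to -0.09) it did not pass (limma adjusted p = 0.108), though it did without WT replicate 3 (0.0452). Tab2 and Tnfaip3 share chromosome 10 with Adora2a, at distances of 67.4 and 56.3 Mb.

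Among the 5 genes of the transcription factors, Nfkb1 rose and the other 4 did not pass. Nfkb1, which encodes the precursor of the DNA-binding p50 subunit (mm10 chromosome 3, 135584655 to 135691547, minus strand), was read at 7.27, 7.16 and 6.84 FPKM for the WT pools against 9.83, 9.46 and 10.6 FPKM for the A2ARKO pools. All A2ARKO values exceed all WT values, and within each genotype the libraries differed by at most 1.12-fold. The group means were 7.09 ± 0.223 and 9.96 ± 0.576 FPKM (SD, n = 3), a rise of 0.44 log2 units (SE 0.0773, limma adjusted p = 0.0371). The call was kept without WT replicate 1 (adjusted p = 0.0424) and lost without WT replicate 2 or 3 (0.073 and 0.0503) and without A2ARKO replicate 1, 2 or 3 (0.117, 0.152 and 0.17). Rela, the gene of the main transactivating subunit, held 21.99, 25.4 and 22.7 FPKM for the WT pools against 30.65, 28.9 and 29.8 FPKM for the A2ARKO pools. Its groups did not overlap either, but it did not pass (log2 fold change 0.34, 95% interval 0.13 to 0.55, limma adjusted p = 0.0803).

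Relb and Nfkb2, the partners of the alternative pathway, had the same order of WT pools. Relb was read at 3.9, 8.29 and 4.87 FPKM for the WT pools against 8.86, 8.59 and 8.46 FPKM for the A2ARKO pools, and Nfkb2 at 10.5, 21.2 and 14.8 FPKM for the WT pools against 22.2, 20.6 and 21.4 FPKM for the A2ARKO pools. For both genes WT replicate 1 was low and WT replicate 2 lay at about the A2ARKO level, so that the A2ARKO mean of Nfkb2 was 2.04, 1.01 and 1.45 times WT replicates 1, 2 and 3. Neither passed (limma adjusted p = 0.192 for Relb and 0.255 for Nfkb2). Without WT replicate 2, Relb passed (adjusted p = 0.0329). Rel, encoding the subunit best known from lymphocytes, was low and level, at 1.93, 1.6 and 1.86 FPKM for the WT pools against 1.77, 1.87 and 1.61 FPKM for the A2ARKO pools (log2 fold change -0.02, 95% interval -0.26 to 0.21). Within a library, the ratio of Relb to Rela was 0.177, 0.327 and 0.215 for the WT pools against 0.289, 0.297 and 0.284 for the A2ARKO pools, and these ranges overlap. Up to 18.1% of the exonic bases of Nfkb2 are shared with genes on the other strand, and the strandedness of the counts is likewise not given in the sources used here.

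On the log2(FPKM + 1) scale the IkappaB genes Bcl3 and Nfkbia had the largest differences of the 35 genes. Tnfaip3 had the largest ratio of group means. Of the 4 IkappaB genes 0 passed by limma, with 2 of 4 at an unadjusted p below 0.05, beside 24.7% of all tested genes. Nfkbia, which encodes IkappaB alpha and is itself an NF-kappaB target (mm10 chromosome 12, 55489410 to 55492647, minus strand), was read at 14.05, 39.2 and 24.8 FPKM for the WT pools against 76.9, 74.6 and 79.5 FPKM for the A2ARKO pools. Every A2ARKO library lay above the highest WT library, WT replicate 2, and the A2ARKO pools agreed within 1.07-fold while the WT pools spread over 2.79-fold. The mean was 2.96 times that of WT, and the log2 fold change of 1.64 (95% interval 0.81 to 2.47) had a limma adjusted p of 0.052. It passed without WT replicate 1 or 2 (adjusted p = 0.02905 and 0.0315) and did not without any of the other 4 libraries (0.0837 to 0.184). Among the 37 genes Nfkbia ranked 5, 2 and 3 by FPKM within the WT pools and 2, 2 and 2 within the A2ARKO pools. Its promoter window, printed above, carries the match closest to the start after that of Traf3 among the windows shown.

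Bcl3, encoding a nuclear IkappaB protein that acts with p50 or p52 dimers, was read at 2.44, 11.75 and 5.58 FPKM for the WT pools against 18.7, 19.7 and 24.03 FPKM for the A2ARKO pools. The groups did not overlap, and the A2ARKO mean was 8.52, 1.77 and 3.73 times the 3 WT libraries. With a log2 fold change of 1.71 (95% interval 0.61 to 2.82) it did not pass (limma adjusted p = 0.0872), though it did without WT replicate 2 (adjusted p = 0.0373). Nfkbie and Nfkbib, encoding IkappaB epsilon and beta, did not show this separation. Nfkbie held 1.72, 6.79 and 2.86 FPKM for the WT pools against 5.1, 3.98 and 4.2 FPKM for the A2ARKO pools, so that WT replicate 2 was the highest of all 6 libraries. Nfkbib held 7.1, 10.1 and 6.21 FPKM for the WT pools against 10.3, 9 and 9.3 FPKM for the A2ARKO pools, with the 2 groups overlapping. The ratio of Nfkbia to Nfkbib within a library was 1.98, 3.87 and 3.997 for the WT pools against 7.48, 8.29 and 8.55 for the A2ARKO pools. The ratio of Nfkbia to Rela was 0.639, 1.54 and 1.09 for the WT pools against 2.51, 2.58 and 2.67 for the A2ARKO pools. Both ratios were higher in every A2ARKO library than in any WT library, and they do not depend on how a library is scaled. Of the exonic bases of Nfkbib 16.4% are shared with genes on the other strand.

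**Figure D2:**
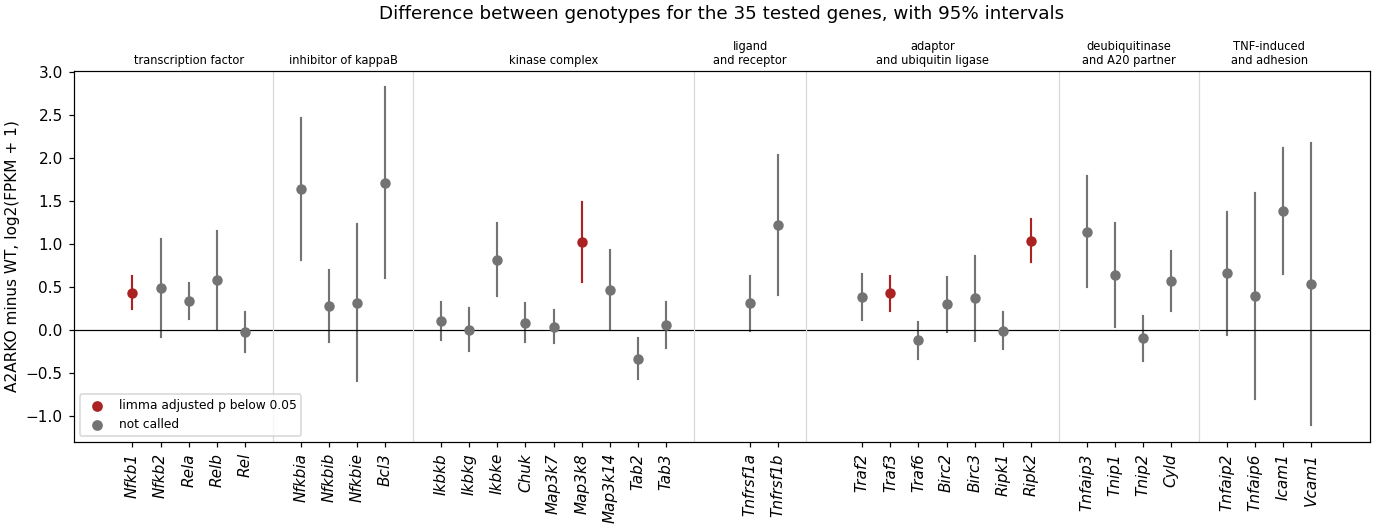
Difference between genotypes in log2(FPKM + 1), A2ARKO minus WT, for the 35 tested genes, grouped by role; points are limma estimates from 3 against 3 libraries, bars are 95% intervals, and red marks an adjusted p below 0.05. The 4 red points are Nfkb1, Map3k8, Traf3 and Ripk2, and the larger estimates of Nfkbia, Bcl3, Icam1 and Tnfrsf1b have wider intervals.

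Of the deubiquitinase genes and their partners, 0 of 4 passed by limma and 3 of 4 had an unadjusted p below 0.05, beside 24.7% of all tested genes. Tnfaip3, which encodes the ubiquitin-editing enzyme that shuts down TNF signalling, was read at 0.43, 1.73 and 0.53 FPKM for the WT pools against 2.71, 2.85 and 3.53 FPKM for the A2ARKO pools. All A2ARKO libraries lay above all WT libraries, at 7.05, 1.75 and 5.72 times WT replicates 1, 2 and 3. Because its WT values straddle 1 FPKM, the log2(FPKM + 1) scale understates the difference of 1.15 (limma adjusted p = 0.063; 0.0189 without WT replicate 2). Cyld, encoding a deubiquitinase that removes ubiquitin chains from signalling proteins, held 7.53, 5.65 and 7.31 FPKM for the WT pools against 8.94, 11.3 and 11.6 FPKM for the A2ARKO pools. The A2ARKO libraries were higher without overlap and the WT order differed from that of the inducible genes, with WT replicate 2 lowest (log2 fold change 0.57, adjusted p = 0.0784). Tnip1 and Tnip2 encode proteins that bring the editing enzyme to its substrates. Tnip1 held 8.57, 16.7 and 10.75 FPKM for the WT pools against 22.5, 16.03 and 18.01 FPKM for the A2ARKO pools, with WT replicate 2 inside the A2ARKO range, and Tnip2 had a log2 fold change of -0.10 (95% interval -0.35 to 0.16).

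Among 4 genes for TNF-induced and adhesion proteins, 0 passed by limma and Icam1 alone had an unadjusted p below 0.05, 1 of 4 beside 24.7% of all tested genes. Icam1, the ligand of leukocyte integrins (mm10 chromosome 9, 21015985 to 21028817, plus strand), was read at 11.7, 29.1 and 18.1 FPKM for the WT pools against 50.2, 46.8 and 52.2 FPKM for the A2ARKO pools. The groups did not overlap, the A2ARKO mean was 2.53 times that of WT, and among the 37 genes Icam1 ranked 7, 5 and 7 in WT and 3, 3 and 3 in A2ARKO. Of its exonic bases 11.7% are shared with a gene on the other strand, and for Bcl3 this share is 6.5%. With a log2 fold change of 1.38 (95% interval 0.65 to 2.12) it did not pass (limma adjusted p = 0.0572), though it did without WT replicate 1 or 2 (0.043 and 0.0267). Vcam1, the second adhesion gene, held 3.03, 18.75 and 18.9 FPKM for the WT pools against 25.03, 12.7 and 12.4 FPKM for the A2ARKO pools. Only WT replicate 1 was low, and the other WT pools lay inside the A2ARKO range, so the 95% interval ran from -1.11 to 2.17. The secreted hyaluronan-binding protein gene Tnfaip6 held 2.57, 12.7 and 8.11 FPKM for the WT pools against 11.5, 7.37 and 8.72 FPKM for the A2ARKO pools, highest in WT replicate 2. Tnfaip2 held 15.1, 35.2 and 24.5 FPKM for the WT pools against 43.1, 36.2 and 34.9 FPKM for the A2ARKO pools, where WT replicate 2 again reached the A2ARKO range.

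The spread among WT pools had a shared order. WT replicate 1 was lowest, replicate 3 intermediate and replicate 2 highest for 18 of the 35 tested genes, 51.4%, beside 16.7% of all tested genes. The range among the WT pools reached 2-fold for 13 of the 35 genes (18.1% of all tested genes) and among the A2ARKO pools for Vcam1 alone. By role, the order held for 3 of 4 IkappaB genes, both tested receptors and 3 of 4 TNF-induced and adhesion genes. It also held for 3 of 4 deubiquitinase genes and partners and 3 of 5 transcription factor genes. Among the 7 tested adaptor and ubiquitin ligase genes it held for 2, and among the 9 kinase genes for 2. Against WT replicate 1, 28 of the 35 genes were higher in every A2ARKO library, against replicate 3, 25, and against replicate 2, 23, beside 39.4%, 40.2% and 39.5% of all tested genes. The median of the A2ARKO mean over the library was 1.5, 1.43 and 1.13 for WT replicates 1, 3 and 2. Skeletal muscle markers summed to 7.37, 18.9 and 953 FPKM in WT replicates 1, 3 and 2, the same order. Endothelial markers did so too, at 2.29, 5.08 and 5.54 FPKM. Leukocyte markers summed to 182, 131 and 1939 FPKM and fibroblast markers to 9337, 6415 and 7465 FPKM in WT replicates 1, 3 and 2, each in another order. Cartilage markers were all 10 highest in WT replicate 1. The part of any of these cell types in the order was not tested.

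**Figure D3:**
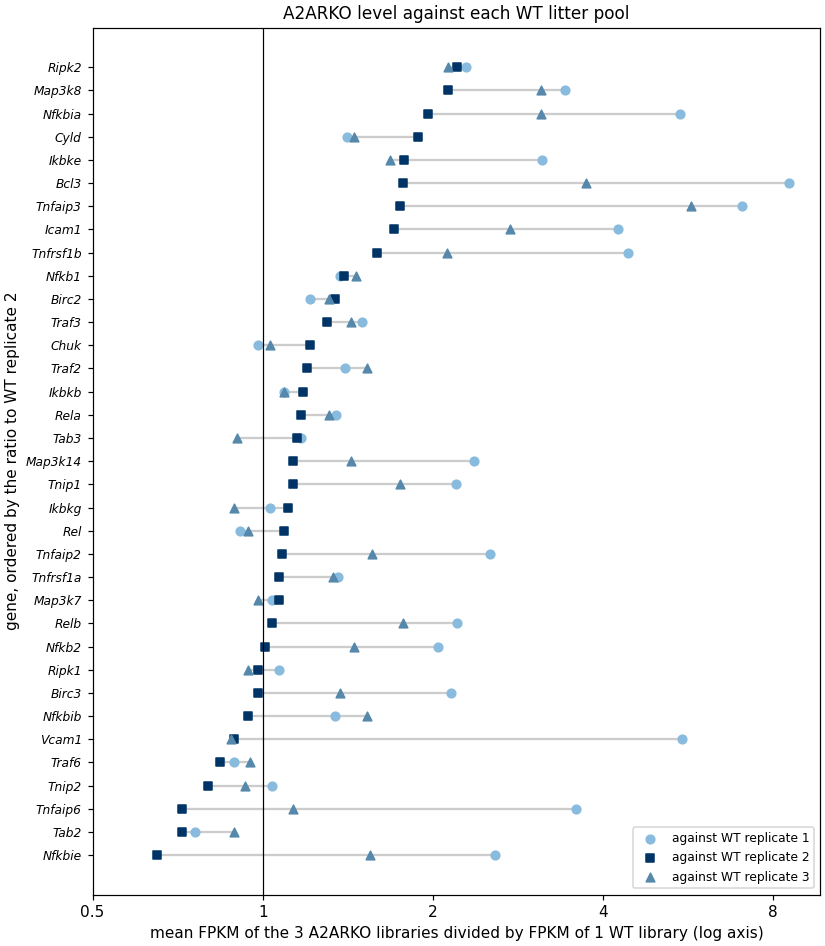
Mean FPKM of the 3 A2ARKO libraries divided by the FPKM of each WT library, on a log axis, for the 35 tested genes, sorted by the ratio to WT replicate 2 (squares). Ripk2 lies between 2.13 and 2.29 against all 3 WT pools, whereas Bcl3 runs from 1.77 to 8.52 and Nfkbie from 0.65 to 2.57.

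Set against each WT pool, the genes showed several patterns. Ripk2, Nfkb1 and Traf3 exceeded each WT pool by a similar factor, for Nfkb1 1.37, 1.39 and 1.46. Nfkbia, Bcl3, Tnfaip3, Icam1 and Tnfrsf1b exceeded even WT replicate 2, by factors of 1.96, 1.77, 1.75, 1.71 and 1.59, and the other 2 pools by more. Nfkb2, Relb, Birc3 and Tnfaip2 matched WT replicate 2, at 1.01, 1.04, 0.98 and 1.08. Nfkbie and Tnfaip6 lay under it, at 0.65 and 0.72. These groupings were drawn after the values were seen and carry no test. Without WT replicate 2 a total of 6 members passed, Bcl3, Icam1, Nfkbia, Relb, Ripk2 and Tnfaip3, where 2.59% of all tested genes were called. Without WT replicate 1 also 6 passed, Icam1, Ikbke, Nfkb1, Nfkbia, Ripk2 and Tnfrsf1b, where 7.76% of all tested genes were called.

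**Figure D4:**
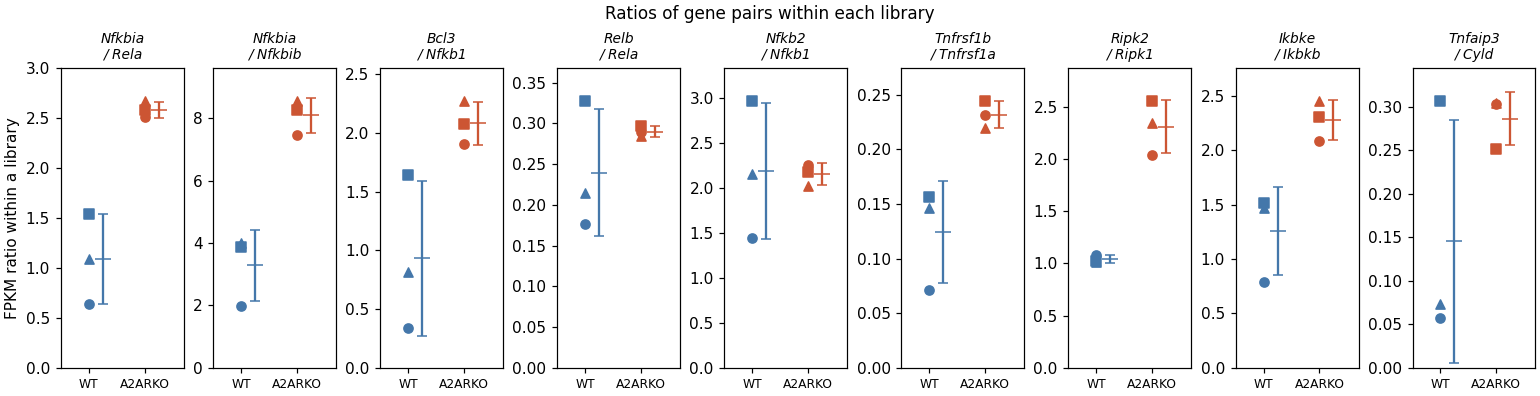
Ratio of the FPKM of the gene named first to that of the gene named second within each library, for 9 pairs; points are litter pools (shapes mark replicate numbers), and the bar beside them is mean ± SD over 3 pools. The ratios of Nfkbia to Rela and of Ripk2 to Ripk1 do not overlap between genotypes, while those of Nfkb2 to Nfkb1 do.

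Other genes of the pathway were taken from a list of 49, of which 40 were tested. Of these 4 rose, beside 3.31% of all tested genes, 0 fell by limma (0 also at an unadjusted p below 0.05) and 36 did not pass. The median log2 fold change of the 40 was 0.13. Zc3h12a, encoding the endoribonuclease Regnase-1 that degrades inflammatory messengers, was read at 2.78, 5.53 and 4.4 FPKM for the WT pools against 36.5, 35.98 and 42.4 FPKM for the A2ARKO pools. The means were 4.24 ± 1.38 and 38.3 ± 3.59 FPKM (SD, n = 3), a rise of 2.94 log2 units (SE 0.207, limma adjusted p = 0.00361), and it passed in all 6 fits that left out 1 library. Nfkbiz encodes the nuclear IkappaB protein IkappaB zeta. It held 1.9, 4.16 and 3.7 FPKM for the WT pools against 17.5, 24.1 and 30.98 FPKM for the A2ARKO pools (log2 fold change 2.57). It passed with all libraries (limma adjusted p = 0.0119) and did not without A2ARKO replicate 2 or 3 (adjusted p = 0.0658 and 0.0547). The death receptor gene Tnfrsf10b and the Traf-binding adaptor gene Tank rose at 0.86 and 0.40. Tnfrsf10b was lost without any 1 A2ARKO library (adjusted p = 0.12, 0.181 and 0.1675) and Tank whichever library was left out (0.061 to 0.213). Irak3 and Ripk3, chosen after their values were seen, had no overlap and did not pass. Irak3, encoding a brake on the Toll arm, held 5.26, 10.95 and 9.45 FPKM for the WT pools against 17.2, 16.3 and 18.4 FPKM for the A2ARKO pools, and Ripk3, the kinase gene of necroptosis, 12.8, 21.04 and 26.75 FPKM for the WT pools against 45.3, 40.4 and 33.5 FPKM for the A2ARKO pools. On the same list, the 5 genes of linear ubiquitin chains, Rnf31, Rbck1, Sharpin, Otulin and Spata2, had log2 fold changes between -0.07 and 0.16 and did not pass.

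Known NF-kappaB target genes, 30 on a list drawn up with earlier results of these libraries in view, formed a further group. Of 28 tested, 15 rose, beside 3.31% of all tested genes. By limma 0 fell (0 also at an unadjusted p below 0.05), beside 1.77%, and 13 did not pass. The median log2 fold change of the 28 was 2.07, beside 0.00201 over all tested genes. Of the 30, 18 reached 1 FPKM in every library, and of those 8 rose in a fit with that filter, while the other 10 tested could pass the filter through 1 genotype. Among the called ones, the 6 with the largest change were Saa3, Lcn2, Mmp3, Cxcl1, C3 and Nos2, at log2 fold changes of 8.20, 7.10, 6.81, 5.60, 4.69 and 4.59. Nos2, encoding inducible nitric oxide synthase, was read at 0, 0.21 and 0.01 FPKM for the WT pools against 13.9, 25 and 43.15 FPKM for the A2ARKO pools and was close to or at 0 in every WT pool. It passed the filter through its A2ARKO pools, where it is high, so its call is a description. Lcn2 passed in all 6 fits that left out 1 library. Saa3 was lost without WT replicate 3 (adjusted p = 0.0603), and Saa3, Mmp3, Cxcl1 and C3 without any 1 A2ARKO library (0.0641 to 0.134). WT replicate 2 was the highest WT pool for 18 of the 28, beside 30.7% of all tested genes.

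**Figure D5:**
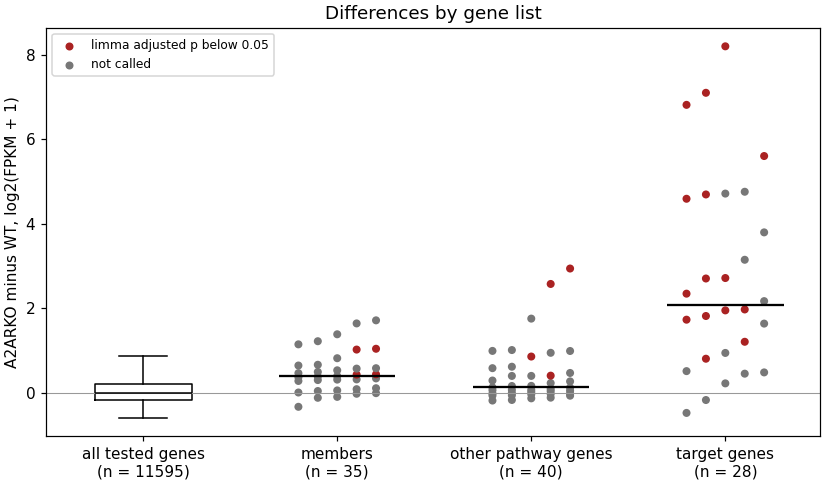
Difference between genotypes in log2(FPKM + 1), A2ARKO minus WT, for all 11595 tested genes (box over the interquartile range, whiskers from the 5th to the 95th percentile) and, as points, for the tested genes of each list; black lines are medians and red points have an adjusted p below 0.05. The medians are 0.40 for the members, 0.13 for the other pathway genes and 2.07 for the targets. The targets were listed with earlier results of these libraries in view, and some passed the filter through 1 genotype, so their median is a description.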

How the data were processed

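RNA from 6 litter pools was sequenced on an Illumina HiSeq platform, per the labels' protocols. The authors deposited 1 table of FPKM, 47480 genes by 6 libraries, rounded to 2 decimals. HTSeq and mm10 are named in the submitters' processing notes. The aligner, annotation, gene lengths and strandedness were all not given in the sources used here. Columns were assigned to samples by title, and the litters are separate, so p-values measure the spread between litter pools.

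The 11595 genes that reached 1 FPKM in 3 or more libraries were compared by limma 3.58.1 in R 4.3.3, with eBayes and its trend option, two-sided, on values of log2(FPKM + 1) computed from the deposited FPKM, with Benjamini-Hochberg adjustment over all of them and a call at an adjusted p below 0.05. The fit was tested on simulated data in which all genes and both genotypes had the same spread. That test does not show how the fit behaves with the unequal spread of these data. FPKM hold no count error of their own. Multiplied by GENCODE exon length (GRCm38), values of genes of at most 150 nt were whole reads within 0.1 read in 99.4% or more of cases up to 10 reads. From these steps, the tested members had about 129 to 18851 reads per library, approximate because the authors' gene lengths are not given. On 10 of the 37 genes some exonic bases (at most 18.1%) are shared with another gene, on 9 of them with one on the other strand. The median SD of log2(FPKM + 1) among the members was 0.197 in WT and 0.0805 in A2ARKO, beside 0.192 and 0.0966 over all tested genes. The fit pools the spread of both genotypes.

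The members, gene lists and rule for naming genes (all members accounted for; from the other lists, up to 6 called genes with the largest change) were chosen with earlier results of these data known. Alternatives were another pseudocount (0.1), other filters, rescaling, quantile normalization, array weights, robust eBayes, a replicate block and each library left out. Windows and positions came from RefSeq and GENCODE. Python 3.11.15 was used for these.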

Additional observations from a re-analysis of the deposited data

How the results depend on the processing

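With 3 litter pools for each genotype, the number of calls depended on the settings, while no called gene among the members, the other pathway genes, the targets and Adora2a changed sign under any alternative. The main fit called 589 genes in all and, as higher, 4 members, 4 other pathway genes and 15 targets. With no filter these counts were 213, 1, 2 and 7, and after rescaling of libraries to equal sums 348, 1, 2 and 14. After rescaling the members had a median of 0.28, beside -0.098 over all tested genes. A filter of 1 FPKM in every library left 8 targets called, out of fewer genes tested, and quantile normalization 2 other pathway genes. Array weights called 1363 genes, 11 members higher, among them Nfkbia, Bcl3, Ikbke, Tnfrsf1b, Tnfaip3 and Icam1, and Tab2 lower (1 gene), but their estimation stopped before it converged and gave A2ARKO replicate 2 a weight of 10.3 against 0.282 for WT replicate 1. The cause of the other changes was not tested.

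With each library left out in turn, 50 to 900 genes, 0 to 6 members higher, 0 to 1 lower, 1 to 5 other pathway genes and 5 to 19 targets were called, the median of the members ran from 0.2626 to 0.4785, and Adora2a from -2.597 to -1.989, with its call lost in 4 of the 6. Adora2a had an unchanged log2 fold change of -2.245 with no filter and with the replicate block, at limma adjusted p of 0.0533 and 0.121.

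Replicate numbers are shared between the genotypes, but no label ties them to a common day or batch. Deviations of same-numbered libraries from their group means correlated at -0.521, -0.325 and -0.387 across genes. No library correlated best with its own number. Deviations within a group sum to 0, so these correlations are not independent and cannot decide whether the numbers pair the samples. A fit with the number as a replicate block called 2 genes in all and 0 members, 0 other pathway genes and 0 targets at an adjusted p below 0.05. Depth limits Tnf and Traf1 most, with as few as 5 reads behind Tnf in WT replicate 1.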
